A study of Homo sapiens with 4 samples.

Results

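Expression of 10 genes of the Notch pathway was examined in Hs683 cells, a human glioma cell line, that carried a knockdown of QK (now named QKI), which encodes an RNA-binding protein found in glia. The genes were the receptors NOTCH1, NOTCH2 and NOTCH3, the ligands JAG1, JAG2 and DLL1, the target repressors HES1 and HEY1, and RBPJ and MAML1 of the nuclear complex. They were chosen by name, as probe sets that the platform annotation gives to 1 of these symbols and no other, and all 10 were found, each with 1 probe set, among 17716 genes measured. Each probe set combines several short probes into 1 value and may match more than 1 transcript. Of the arrays, 2 came from cells transduced with miR-20a, a microRNA of the miR-17 family, and 2 from control cells transduced with miR-NT, a scrambled microRNA designed to have no target. All 4 arrays carried the QK knockdown, and cells without it were not analysed here. The labels give neither the vectors nor whether the replicates were separate cultures, so that p-values measure only array-to-array spread within this set, possibly of technical origin. A single cell line was studied, so the values describe that line.

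Notch receptors are single-pass membrane proteins that are activated by ligands of the Jagged and Delta families on a neighbouring cell. Ligand binding exposes the receptor to an ADAM protease and then to gamma-secretase, and the freed intracellular domain enters the nucleus, where it joins the DNA-binding protein RBPJ and a Mastermind coactivator such as MAML1. The complex switches on genes of the HES and HEY families, whose products repress transcription of neural differentiation genes. In the developing brain the pathway is known for keeping neural progenitors undifferentiated and for favouring glial fates, and it is active in many gliomas.

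The guide-strand sequence of miR-20a is shown because it defines what was added to the miR-20a cells, with the seed, bases 2 to 8, in capitals. It is RefSeq's mature sequence of 23 bases (GRCh38.p14, chr13:91351072-91351094, plus strand), and the labels do not say which strand or precursor was delivered.
miR-20a-5p: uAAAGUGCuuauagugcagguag

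Promoter windows are shown because HES genes are known direct outputs of the RBPJ complex. The windows from 250 bases before to 50 bases after each gene's start, as RefSeq gives them on GRCh38.p14, were searched on both strands for GTGGGAA, the core of the site that RBPJ binds, and for its shorter form TGGGAA, which lies within it. Windows were found for 8 of the 10 genes, 12 windows in all since RBPJ has 5 starts; DLL1 and HEY1 had no entry. GTGGGAA was present in 6.25% of all 35116 promoter windows and TGGGAA in 24.0%. Among the 8 genes, HES1 and RBPJ (1 of its 5 windows) held GTGGGAA. The windows of NOTCH1, NOTCH2, NOTCH3, JAG1, JAG2 and MAML1 held neither form, which says only that these letters are not in those windows. HES1 had GTGGGAA starting 85 bases before the start and a further TGGGAA at 70 bases, both on the plus strand. RBPJ had GTGGGAA at 73 bases on the plus strand and at 115 bases on the minus strand. Of 8 other HES, HEY and NRARP genes searched, HES4, HES5, HEY2 and HEYL held GTGGGAA. A match is a description of the letters and not a measured binding site. The 150 bases before the start of HES1 (GRCh38.p14, chr3:194135998-194136147, plus strand) and before that start of RBPJ (chr4:26319596-26319745, plus strand) are shown with both forms in capitals.
HES1: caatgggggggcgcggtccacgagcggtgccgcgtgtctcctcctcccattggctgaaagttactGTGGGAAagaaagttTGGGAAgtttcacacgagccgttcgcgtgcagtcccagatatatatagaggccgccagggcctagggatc
RBPJ: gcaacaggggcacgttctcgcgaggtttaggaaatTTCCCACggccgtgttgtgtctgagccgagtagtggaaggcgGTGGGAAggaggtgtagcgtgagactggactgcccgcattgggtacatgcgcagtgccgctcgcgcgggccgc

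Each array gave 1 log2 expression value per probe set. Array medians over 20323 probe sets lay between 6.43 and 6.45, and Pearson's r between arrays, across probe sets that are not independent replicates, lay between 0.990 and 0.997. The 5' control probe set of ACTB has a signal that drops where RNA is degraded or labelling is incomplete. It measured 11.59 and 10.43 on the miR-20a arrays (replicate 1, replicate 2), against 12.78 and 12.66 on the miR-NT arrays. That of GAPDH measured 13.17 and 12.30 with miR-20a, against 13.89 and 13.81 with miR-NT. A 5' signal also follows the level of its transcript, and 3' signals of ACTB and GAPDH were not compared here. QKI, the gene knocked down in all these cells, measured 7.52 and 7.08 with miR-20a and 8.14 and 7.92 with miR-NT. Its log2 fold change was -0.73 (limma adjusted p = 0.106). Of 12 glial and neural markers, 7 were bright enough to be kept for testing: VIM, SOX9, CD44, SOX2, PDGFRA, CSPG4 and FABP7. Means of SOX2, PDGFRA, CSPG4 and FABP7 over the 4 arrays were only 5.77 to 5.97, where the dimmest gene kept had 5.46. GFAP, S100B, NES, OLIG1 and OLIG2 were among the dimmest 30% of genes, which were left out, with values of 5.18 or less on every array. Of 16 measured markers of immune, epithelial and endothelial cells, 6 were kept (CD3E, AIF1, ITGAM, KRT8, KRT18 and PECAM1). PTPRC, CD14, CSF1R, EPCAM, CDH1, KRT19, VWF, CDH5, KDR and TEK were left out as dim.

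NOTCH2, JAG1, RBPJ and NOTCH3 measured 1.74-, 1.48-, 1.31- and 1.24-fold lower with miR-20a than with miR-NT, and HEY1 and HES1 1.33- and 1.20-fold higher, but no Notch gene passed the limma test over all genes. A lower share of cells with a transcript and less of it per cell cannot be told apart here. Of the 10 genes, 8 were kept for testing, and 0 of the 8 had a Benjamini-Hochberg adjusted p under 0.05, where 1 of 12401 genes was called lower (0.00806%) and 0 higher (0%). With no adjustment and p under 0.05 in limma, 4 of the 8 were lower with miR-20a (NOTCH2, NOTCH3, JAG1 and RBPJ), beside 13.2% of all genes tested, and 2 were higher (HES1 and HEY1), beside 5.82%. The same 6 genes were those in which the 2 groups did not overlap, 4 lower beside 31.1% of all genes and 2 higher beside 25.1%. The median log2 fold change of the 8 was -0.16, against -0.02 over all 12401 genes, and -0.15 over all 10, against 0.003 over all 17716 genes. After quantile normalization 1583 of all genes (12.8%) lay higher and 1451 (11.7%) lower at that unadjusted p, against 722 and 1633 in the values as deposited, while those of the 8 Notch genes were again 2 and 4.

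Leaving out 1 miR-20a array changed the count of calls. Without miR-20a replicate 1, NOTCH2, JAG1, HEY1 and RBPJ passed in limma, but so did 1869 of the 12401 genes (15.1%). Without miR-20a replicate 2, NOTCH2 passed among 260 genes (2.1%), and without either miR-NT array 0 Notch genes and 0 of all genes passed. At an unadjusted limma p, 1 Notch gene was then higher and 2 lower without miR-NT replicate 1, beside 2.5% and 4.43% of all genes. Without miR-NT replicate 2, 1 was higher and 4 lower, beside 2.49% and 9.43%. In such a fit the lone array of a group is assumed to vary like the arrays of the other group. The fits without a miR-20a array had 1 residual and 28.3 prior degrees of freedom, so these calls rest mainly on a spread pooled over all genes.

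**Figure D1:**
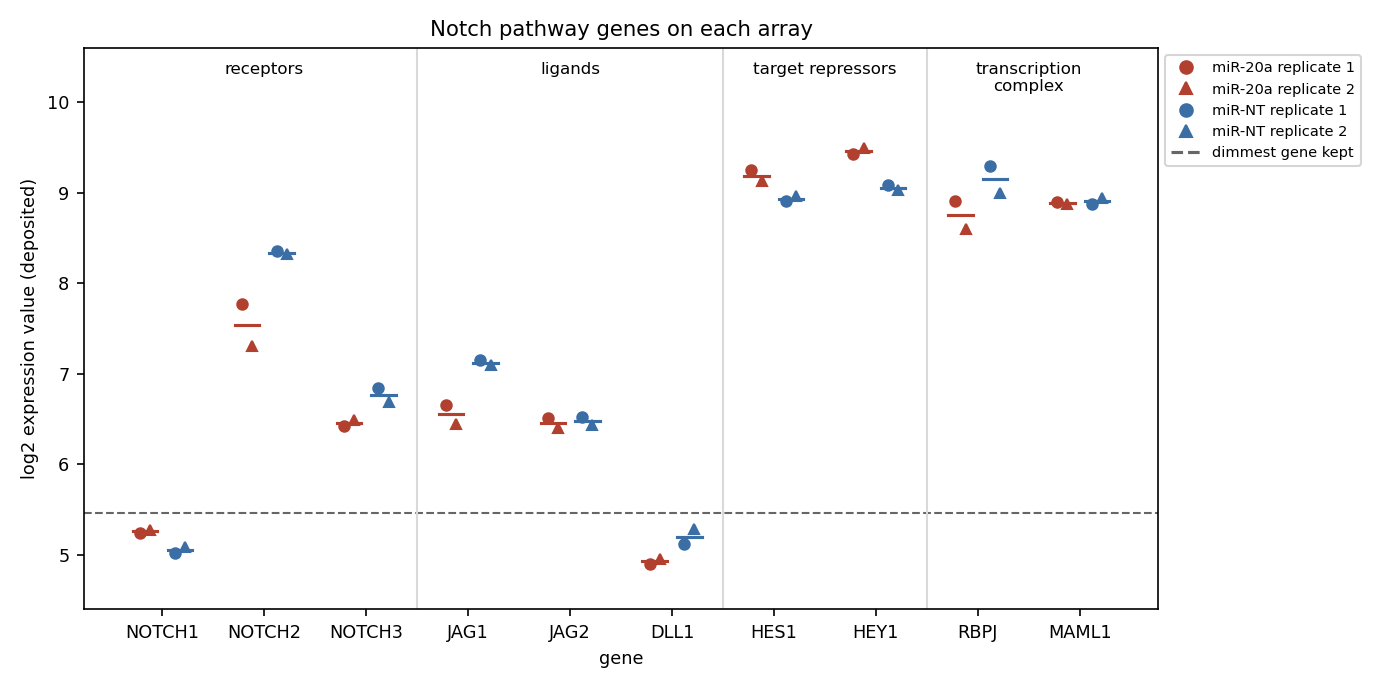
Deposited log2 values (vertical axis) of the 10 Notch genes (horizontal axis, by role) on each array, miR-20a in red and miR-NT in blue, with circles for replicate 1, triangles for replicate 2, a bar at the mean of the 2 arrays and a dashed line at 5.46, the mean of the dimmest gene kept. Both miR-20a arrays lie below both miR-NT arrays for NOTCH2, NOTCH3, JAG1, DLL1 and RBPJ and above them for NOTCH1, HES1 and HEY1; heights of different genes are not comparable, since each probe set has its own brightness.

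Among the receptors, NOTCH2 had the largest difference of all 10 genes. It measured 7.77 and 7.31 on the log2 scale on the miR-20a arrays, against 8.35 and 8.32 on the miR-NT arrays. The groups were 0.55 apart at their nearest, and the miR-20a arrays were 0.46 apart from each other where the miR-NT arrays were 0.035 apart. The mean was 7.54 ± 0.33 with miR-20a and 8.34 ± 0.02 with miR-NT (SD, n = 2 each), a log2 fold change of -0.80 (SE 0.15), which is 1.74-fold lower (limma adjusted p = 0.0963). Leaving out miR-20a replicate 1 gave -1.03, and leaving out replicate 2 gave -0.57. The lower of the miR-20a arrays was also the one with the lower ACTB 5' signal, and when that signal was added to the fit as a covariate (called adjustment for it from here on) the log2 fold change of NOTCH2 was -0.12 (SE 0.25, limma adjusted p = 0.992). That fit had 1 residual and infinite prior degrees of freedom. Its SE of 0.25 was thus pooled over all genes, is the same for every gene, and does not measure a gene's own spread. Since the ACTB 5' signal was lower on both miR-20a arrays, it could be told apart from the group only through the differences within each pair. It was 11.59 and 10.43 on the miR-20a arrays but 12.78 and 12.66 on the miR-NT arrays. How far adjustment moves a gene's log2 fold change therefore follows mainly from that gene's difference between the 2 miR-20a arrays. NOTCH2NLA, a human-specific partial copy of NOTCH2 near-identical to its first exons, had its own probe set and measured 8.92 and 8.97 with miR-20a, against 8.83 and 8.81 with miR-NT (log2 fold change 0.13, SE 0.09, limma adjusted p = 0.455). Which part of NOTCH2 the probe set reads, and whether it also reads such copies, was not established, so the NOTCH2 value is uncertain in this respect.

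NOTCH3, a receptor known mainly from vascular smooth muscle cells, measured 6.42 and 6.49 with miR-20a, against 6.84 and 6.69 with miR-NT. The groups did not overlap, and replicates were 0.065 apart with miR-20a and 0.15 apart with miR-NT. The miR-20a mean was 1.24-fold lower (log2 fold change -0.31, SE 0.10, limma adjusted p = 0.202). NOTCH3 stood at -0.38 after adjustment for the ACTB 5' signal (SE 0.25, limma adjusted p = 0.885). Between the miR-20a arrays, replicate 2 minus replicate 1 was 0.065 in NOTCH3 and -0.46 in NOTCH2. Whether the adjusted values of NOTCH3 and NOTCH2 differ was not tested.

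NOTCH1, the receptor most studied in neural progenitors, was dim on all 4 arrays. It measured 5.24 and 5.27 with miR-20a and 5.02 and 5.08 with miR-NT, with means below that of the dimmest gene kept (5.46), so it was left out of the test. Both miR-20a arrays were above both miR-NT arrays, by 0.21 on the log2 scale between the means (95% interval -0.01 to 0.43 in the fit without a filter, limma adjusted p = 0.313). Dim probe sets may read little more than background, and the files give no detection calls.

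The 3 ligands had unlike values. JAG1, a Jagged ligand expressed in many gliomas, measured 6.66 and 6.45 with miR-20a, against 7.15 and 7.09 with miR-NT. The groups were 0.44 apart at their nearest, with replicate 2 again the lower of the miR-20a pair. The mean was 6.55 ± 0.15 with miR-20a and 7.12 ± 0.04 with miR-NT (SD, n = 2 each), a log2 fold change of -0.57 (SE 0.11), which is 1.48-fold lower (limma adjusted p = 0.0963). It was -0.26 after adjustment for the ACTB 5' signal (SE 0.25, limma adjusted p = 0.958).

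JAG2, the other Jagged ligand, measured 6.51 and 6.40 with miR-20a, against 6.52 and 6.44 with miR-NT. The groups overlapped, and the difference was within the spread between replicates (log2 fold change -0.02, 95% interval -0.26 to 0.21, limma adjusted p = 0.907); it turned to 0.16 after adjustment for the ACTB 5' signal. DLL1, a Delta ligand of neural progenitors, was dim and left out of the test, at 4.90 and 4.96 with miR-20a, against 5.11 and 5.29 with miR-NT. Its groups did not overlap, and the difference between the means was -0.27 (95% interval -0.51 to -0.03 in the fit without a filter, limma adjusted p = 0.263).

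**Figure D2:**
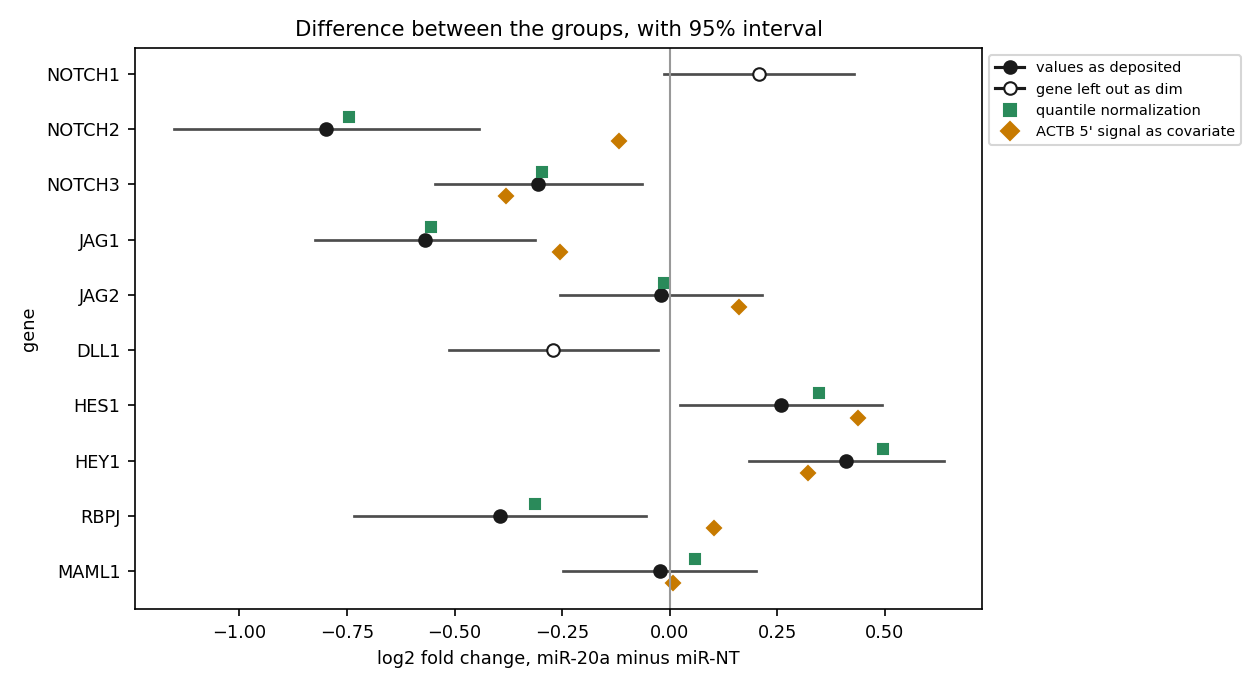
Log2 fold change of miR-20a minus miR-NT (horizontal axis) of each of the 10 genes (vertical axis), with its 95% interval from limma as a line; open circles are the genes left out as dim, green squares are values after quantile normalization and orange diamonds are values adjusted for the ACTB 5' signal. NOTCH2 stands at -0.80 as deposited and at -0.12 with the covariate, RBPJ at -0.39 and 0.10, while NOTCH3, HES1 and HEY1 stand at -0.38, 0.44 and 0.32 with it.

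The effector genes HES1 and HEY1 lay on the other side of 0 from NOTCH2 and JAG1. HEY1, a repressor of the basic helix-loop-helix class induced by Notch, measured 9.43 and 9.50 with miR-20a, against 9.09 and 9.03 with miR-NT. Both miR-20a arrays were above both miR-NT arrays, and replicates were 0.067 apart with miR-20a and 0.060 apart with miR-NT. The mean was 9.47 ± 0.05 with miR-20a and 9.06 ± 0.04 with miR-NT (SD, n = 2 each), a log2 fold change of 0.41 (SE 0.10), or 1.33-fold higher (limma adjusted p = 0.122). It was 0.32 after adjustment for the ACTB 5' signal (SE 0.25, limma adjusted p = 0.929), and 0.38 to 0.44 with an array left out.

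HES1, the related repressor with GTGGGAA in its promoter window, measured 9.25 and 9.13 with miR-20a, against 8.91 and 8.96 with miR-NT. The groups did not overlap, and the lower miR-20a array was 0.17 above the higher miR-NT array. The log2 fold change was 0.26 (SE 0.10), which is 1.20-fold higher (limma adjusted p = 0.238). The value stood at 0.44 after adjustment for the ACTB 5' signal (SE 0.25, limma adjusted p = 0.826) and at 0.35 after quantile normalization (limma adjusted p = 0.11).

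Of the nuclear complex, RBPJ and MAML1 were measured. RBPJ, which binds the DNA for every Notch receptor, measured 8.91 and 8.60 with miR-20a, against 9.30 and 9.00 with miR-NT. The groups did not overlap but were only 0.091 apart at their nearest, and replicate 2 minus replicate 1 was -0.31 with miR-20a and -0.30 with miR-NT. The miR-20a mean was 1.31-fold lower (log2 fold change -0.39, SE 0.15, limma adjusted p = 0.221). After adjustment for the ACTB 5' signal it turned to 0.10 (SE 0.25, limma adjusted p = 0.995), and without miR-20a replicate 2 it was -0.24. RBPJ has processed pseudogenes in the human genome, and whether its probes read them was not established.

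MAML1, a Mastermind coactivator, measured 8.90 and 8.87 with miR-20a, against 8.88 and 8.94 with miR-NT. The groups overlapped (log2 fold change -0.02, 95% interval -0.25 to 0.20, limma adjusted p = 0.888), and the value turned to 0.059 after quantile normalization.

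NOTCH2, the gene with the smallest p of the 8, was compared with the 12400 other genes kept, each centred on its own mean over the 4 arrays. The nearest patterns by Euclidean distance were those of MGAT4B, a Golgi N-acetylglucosaminyltransferase (distance 0.037), the rhomboid-family membrane protein gene RHBDD2 (0.042) and the tetraspanin gene TSPAN3 (0.050). Their log2 fold changes were -0.78, -0.82 and -0.83. With 4 arrays such a likeness is a description only.

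Of 64 further genes of the pathway listed by role, 58 were measured and 45 kept for testing. In limma 0 of the 45 passed at an adjusted p under 0.05 over all genes, while 4 lay higher and 6 lower at a p under 0.05 without adjustment (5.82% and 13.2% over all genes). Without miR-20a replicate 1, 8 of the 45 passed, where 15.1% of all genes did, and without miR-20a replicate 2, 1 did, HEY2, where 2.1% of all genes did; these too are near the shares of all genes. Both miR-20a arrays lay above both miR-NT arrays in 13 of the 45 (25.1% over all genes), and below in 15 (31.1%), shares near those of all genes. The median log2 fold change was -0.03, close to that of all genes (-0.02), and single values ran from -0.44 to 0.46.

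HEY2, a relative of HEY1 and also a Notch-induced repressor, had the smallest p of these 45 genes. It measured 7.37 and 7.28 with miR-20a, against 6.84 and 6.88 with miR-NT, with the groups 0.39 apart at their nearest (log2 fold change 0.46, SE 0.10, limma adjusted p = 0.105). It was 0.59 after adjustment for the ACTB 5' signal (SE 0.25, limma adjusted p = 0.548). The other targets kept were HES4 (log2 fold change -0.22), HES6 (0.12), HES7 (-0.02), HEYL (-0.03) and NRARP (-0.13). The groups did not overlap in HES4 and HEYL (lower, beside 31.1% of all genes) or in HES6 (higher, beside 25.1%), and 0 of these targets passed. At their nearest the groups were only 0.024 apart in HEYL and 0.017 apart in HES6.

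Among the proteases that release the Notch intracellular domain, 5 of 6 kept genes had values below 0, as did 53.8% of all genes. At an unadjusted limma p under 0.05, 3 of the 6 were lower, beside 13.2% of all genes, and 0 passed after adjustment. APH1A, a scaffold subunit of gamma-secretase, measured 6.41 and 6.47 with miR-20a, against 6.82 and 6.87 with miR-NT (log2 fold change -0.41, SE 0.10, limma adjusted p = 0.122). ADAM17, a sheddase of many membrane proteins including Notch, measured 5.65 and 5.48 with miR-20a, against 5.95 and 6.04 with miR-NT (log2 fold change -0.43, SE 0.11, limma adjusted p = 0.132), and stood at -0.18 after adjustment for the ACTB 5' signal. ADAM10, the main protease of ligand-induced cleavage, was left out as dim and was singled out after its values were seen: 5.16 and 4.63 with miR-20a, against 6.32 and 5.51 with miR-NT. It differed by -1.02 (SE 0.26, limma adjusted p = 0.165 without a filter), and replicate 2 was lower than replicate 1 in both groups. PSEN2, a catalytic subunit of gamma-secretase, was the protease gene above 0 (log2 fold change 0.24).

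Other genes named by the smallest p were regulators of transcription. The corepressor CTBP1 measured 10.40 and 10.18 with miR-20a, against 10.83 and 10.63 with miR-NT (log2 fold change -0.44, SE 0.12, limma adjusted p = 0.153). SNW1, a splicing and transcription cofactor that binds the Notch complex, measured 8.37 and 8.15 with miR-20a, against 8.72 and 8.58 with miR-NT (log2 fold change -0.39, SE 0.11, limma adjusted p = 0.164). Both came near 0 after adjustment for the ACTB 5' signal, at -0.09 and -0.06. TLE1, a Groucho corepressor recruited by HES proteins, measured 8.95 and 8.96 with miR-20a, against 8.71 and 8.57 with miR-NT (log2 fold change 0.31, SE 0.10, limma adjusted p = 0.187), and stood at 0.32 with that covariate. The 4 glycosylation genes kept, which encode Fringe and O-glycosyl transferases that tune ligand choice, all overlapped between groups, as did 5432 of all 12401 genes. Their values lay from -0.19 to -0.02. The 10 genes of endocytosis and turnover ran from -0.17 to 0.25.

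**Figure D3:**
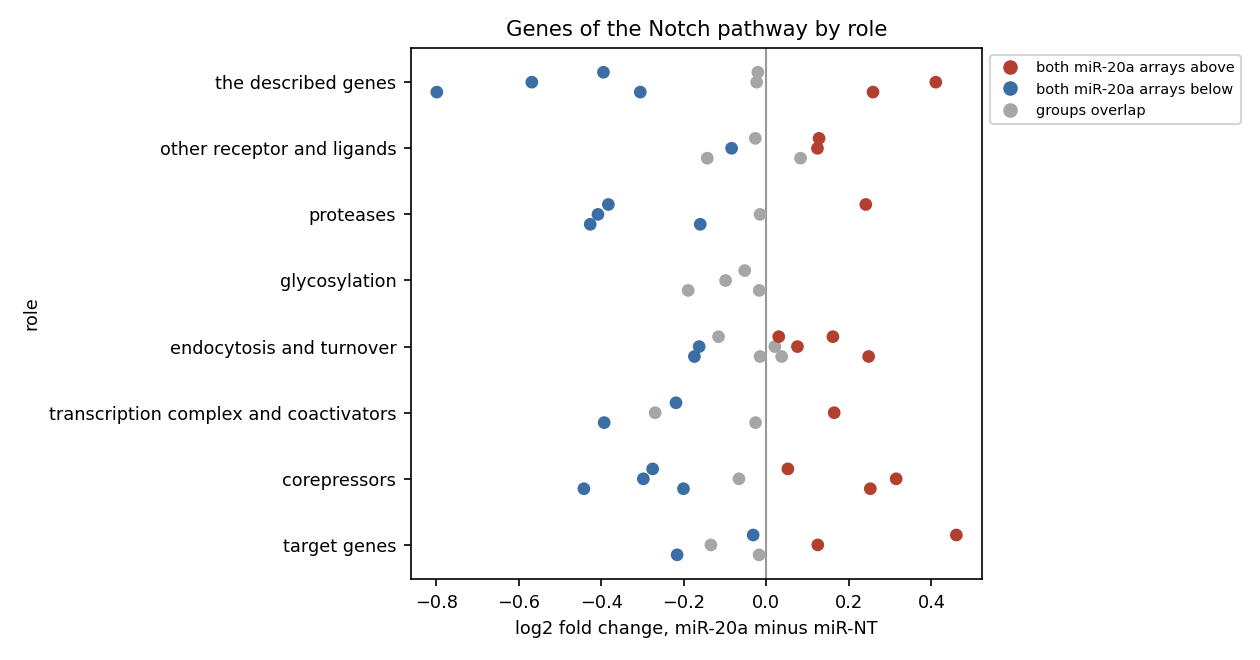
Log2 fold change of miR-20a minus miR-NT (horizontal axis) of each gene kept for testing, with a row for the 8 Notch genes described and a row for each role of the 45 further pathway genes; red points have both miR-20a arrays above both miR-NT arrays, blue points both below, and grey points overlap. Points of the further genes lie between -0.44 and 0.46, and those of the 8 genes between -0.80 and 0.41.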

How the data were processed

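Total RNA was labelled as biotinylated cRNA and measured on 4 1-colour arrays with probes near transcript 3' ends, per the labels' protocols. The deposited values are log2 expression values, judged from their range. Of the upstream tools, affy is listed (without a version) per the submitters' processing notes, and their normalization by the authors is not given in the sources used here. Members and lists alike were chosen with earlier results of these data known.

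Gene names came from the platform annotation, brought up to date by gene identifier in RefSeq's gene table (18034 of 18060 single-gene probe sets matched). The brightest probe set stood for each of 17716 genes, and the 5315 dimmest genes by mean of the 4 arrays (30%) were left out. Of the 10 Notch probe sets, 8 have names ending in _s_at, Affymetrix's mark for probes that may match several transcripts.

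The fit was limma 3.58.1 in R 4.3.3 (lmFit, eBayes, two-sided, no covariate), with Benjamini-Hochberg adjustment over 12401 genes, a threshold of 0.05, and 2 residual and 5.53 prior degrees of freedom. It was tested on simulated data. Genes left out as dim have their standard errors and intervals from the fit without a filter. An exact permutation test of 2 against 2 arrays cannot go below p = 0.333, and none was run; the number of arrays limits the precision. Named were all members, the 6 further pathway genes with the smallest p and the 3 genes nearest in pattern to the member with the smallest p; others were named after their values were seen. Alternatives were quantile normalization, other dim filters, an intensity trend, the mean of probe sets, the replicate block, the ACTB 5' covariate, each array left out and, added after seeing the data, median centring.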

Additional observations from a re-analysis of the deposited data

How the results depend on the processing

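The count of Notch genes past the threshold in limma was 0 as deposited and under every alternative run except those without a miR-20a array, and ranged from 0 to 4 with an array left out; that of the further pathway genes ranged from 0 to 8 there. The median log2 fold change of the Notch genes tested, -0.16 as deposited, was -0.31 with the dimmest 50% left out, where 7 genes remained, and 0.055 in the fit with the ACTB 5' covariate (0.047 over all genes); with an array left out it ranged from -0.22 to -0.12. NOTCH2, NOTCH3 and JAG1 stayed below 0 and HES1 and HEY1 above 0 under all 12 alternatives. Most of these could not change the sign. Other dim filters, an intensity trend, the mean of probe sets and the replicate block left these values as they were. Median centring moved all genes alike by a small amount. Since the groups did not overlap in these genes, leaving out an array could not turn the sign either. Only quantile normalization and the ACTB 5' covariate could have done so. RBPJ turned to 0.10 with the ACTB 5' covariate, and QKI, at -0.73 as deposited, came to -0.065. The values near 0 changed sign: JAG2 to 0.16 with that covariate and from -0.079 to 0.037 over the fits with an array left out, and MAML1 to 0.059 after quantile normalization, 0.0064 with the covariate and from -0.056 to 0.0089 with an array left out. The cause of these changes was not tested. With the replicate number as a block, 0 Notch genes passed (smallest limma adjusted p = 0.139; 2 higher and 4 lower at an unadjusted p under 0.05, beside 8.26% and 17.2% of all genes). Same-numbered arrays deviated together (Pearson's r = 0.267 across 12401 genes), but with 2 pairs the numbers do not establish a pairing. Over all genes the calls numbered 1 as deposited, 0 with the block, 5 after quantile normalization, 4 with the dimmest 50% left out, 24 with an intensity trend and robust prior, 6 with the ACTB 5' covariate and 47 after median centring. No pseudocount applied to log2 values. Without detection calls, how far the dim NOTCH1 and DLL1 signals lie above background was not established.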
